A study of Mus musculus with 6 samples.

Results

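Genes for proteins that bind microtubules, or that keep tubulin from assembling, were followed through maps of AGO2 binding in newborn mouse brain: *Map1a*, *Map1b*, *Map2*, *Map4*, *Mapt*, *Dcx*, *Dclk1*, *Dclk2* and *Stmn1*. They are 9 of 49997 mouse genes with mm10 RefSeq gene bodies. They were chosen by name, not by a measured value, but with earlier results of these data known. A binding cluster was given to a gene when it overlapped the gene body on the same strand. By that rule the genes held 674 of 359172 AGO2 clusters in the WT library, 1203 of 616014 in *Mov10* Deletion library 1 and 1203 of 616005 in *Mov10* Deletion library 2.

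The libraries came from whole brain of C57Bl/6J pups at postnatal day 0, with 1 WT and 2 *Mov10* Deletion AGO2 immunoprecipitations (IPs), each with its own size-matched input; *Mov10* Deletion libraries 1 and 2 are replicates 1 and 2. The study asked how the RNA helicase MOV10 bears on AGO2 binding to neuronal mRNAs. *Mov10* Deletion mice carried a floxed *Mov10* allele and *Emx1*-Cre, and came from crosses to *Mov10* heterozygous mutants. By the paper, *Emx1*-Cre depletes MOV10 in excitatory neurons of neocortex and hippocampus, whereas the mutant allele is disrupted by an insertion. Whole brain also holds other cells, and in which of them the recombinase acted was not measured here. The assay was chimeric eCLIP, in which AGO2 is crosslinked to RNA and immunoprecipitated, and reads that join a miRNA to a piece of its target name the miRNA that was bound there.

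Microtubule-associated proteins set the stability, spacing and growth of microtubules in axons and dendrites. MAP2 marks dendrites, tau (*Mapt*) is concentrated in axons, MAP1B is abundant while axons grow, and doublecortin (*Dcx*) and its kinase relatives (*Dclk1*, *Dclk2*) act in migrating and differentiating neurons. AGO2 carries miRNAs to mRNAs, where bases 2 to 8 of the miRNA, the seed, pair with the target, most often in the 3’UTR and at times in the coding sequence (CDS).

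Of the miRNAs that recurred on these genes, some that the results turn on are shown with their mature sequences (RefSeq, 5′ to 3′, seed in capitals), because the sites further on are read against them. Of the 78 miRNAs assigned to the genes, 69 had a sequence in the reference table; miR-124-3p, the most frequent, had none there and is given by name only.
miR-9-5p: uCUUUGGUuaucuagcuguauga
miR-125b-5p: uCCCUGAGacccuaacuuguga
let-7b-5p: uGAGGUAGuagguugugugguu
let-7c-5p: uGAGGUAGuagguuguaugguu
miR-26a-5p: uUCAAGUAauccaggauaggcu
miR-15a-5p: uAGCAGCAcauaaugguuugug
miR-16-5p: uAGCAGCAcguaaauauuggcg
miR-135a-5p: uAUGGCUUuuuauuccuauguga
let-7b-5p and let-7c-5p share 1 seed, and miR-15a-5p and miR-16-5p share another.

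Windows of 28 or 29 bases around matches to these seeds are shown for some target clusters that at least 2 libraries held in common. Each is the transcript strand of the GRCm39 sequence, with the match in capitals and its GRCm39 position in the sentence after the list. The clusters themselves are in mm10; the builds were linked through promoter sequences that flank or lie in each gene, as described under the processing, and no coordinate was converted.
*Map1b* 3’UTR, miR-9-5p: ctgaagcaaatACCAAAGcaggtgggagt
*Map1b* CDS, let-7c-5p: cttttcagattCTACCTCtgcagctaaag
*Map2* CDS, miR-9-5p: cctattcagatACCAAAGagaacgggatc
*Map2* 3’UTR, miR-26a-5p: acttcctcataTACTTGAatatgatactt
*Map4* CDS, miR-9-5p: atgtgttacttACCAAAGaaacagaacta
*Mapt* CDS, miR-9-5p: cagggagaatgCCAAAGccaagacagac
*Dclk1* 3’UTR, miR-16-5p: caatggtaattTGCTGCTaattggggtcc
*Dclk2* intron, miR-9-5p: ttaagctttcaACCAAAGaagcatgcaga
The matches lie in *Map1b* at chr13:99561400-99561406 and chr13:99567318-99567324 (minus strand), in *Map2* at chr1:66419878-66419884 and chr1:66478984-66478990 (plus strand), and in *Map4* at chr9:109863878-109863884 (plus strand). Those of *Mapt*, *Dclk1* and *Dclk2* lie at chr11:104218832-104218837 (plus), chr3:55441362-55441368 (plus) and chr3:86733821-86733827 (minus). The *Mapt* window holds a 6-base match, and the others hold all 7 bases. A match is a description of the letters in these windows.

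In every library each of the genes held AGO2 clusters, but few of these stood far above input. A cluster is called enriched here when its deposited log2 IP over input was at least 3 and its deposited −log10 p at least 3. In WT, 22 of 674 clusters were enriched (3.26%, exact 95% interval 2.06 to 4.9) against 2.11% of all clusters in that library. In *Mov10* Deletion library 1, 67 of 1203 were enriched (5.57%, 4.34 to 7.02) against 5.18% of all clusters, and in library 2, 38 of 1203 (3.16%, 2.24 to 4.31) against 3.1%. *Dclk1* held 16, 32 and 18 of these calls in the 3 libraries. Without *Dclk1*, the shares were 6 of 470 (1.28%, 0.47 to 2.76), 35 of 821 (4.26%, 2.99 to 5.88) and 20 of 821 (2.44%, 1.49 to 3.74). Each share lay below the library's background, but each interval holds that background. Leaving out the gene with the most calls builds in a lower share. Intervals cover counting error only, and with 1 WT library no test between genotypes could be made. In whole brain, fewer cells of a type and less RNA per cell cannot be told apart.

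**Figure D1:**
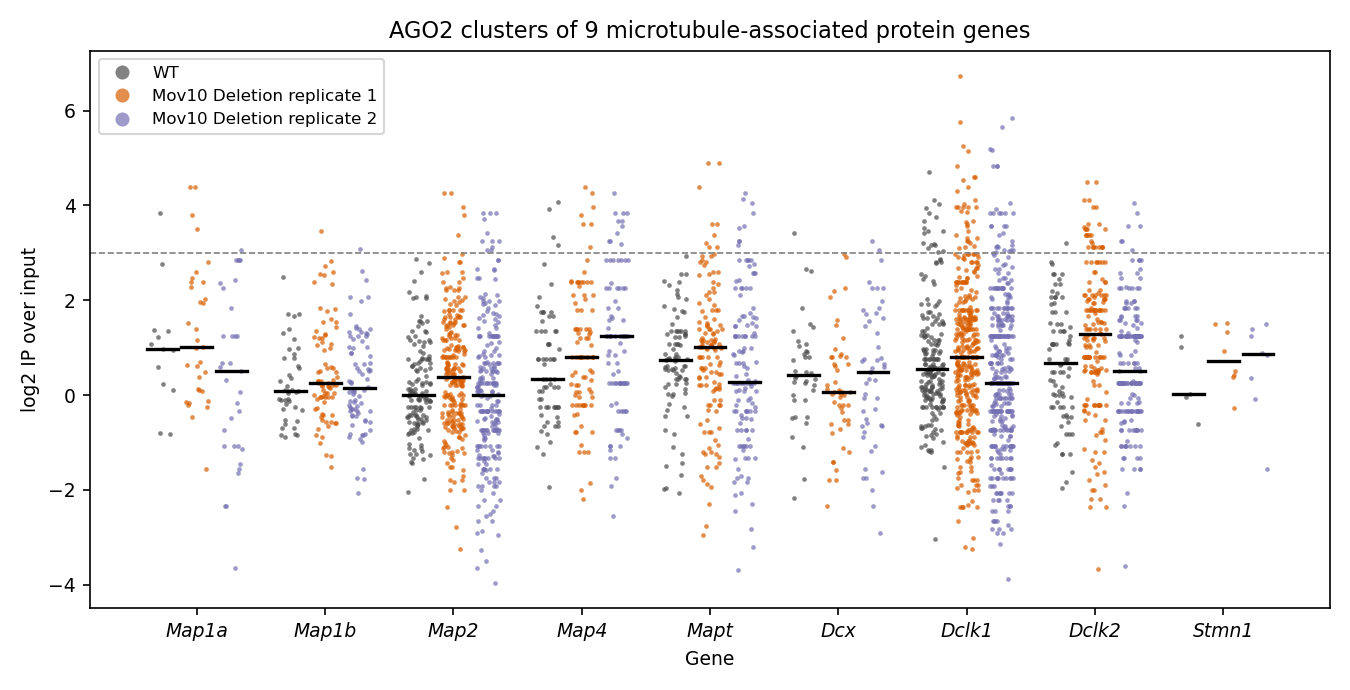
Each point is 1 AGO2 cluster, placed by gene (horizontal axis) and by its log2 IP over input (vertical axis), with colours for the WT library and *Mov10* Deletion libraries 1 and 2; black bars are medians and the dashed line marks a log2 of 3. *Dclk1* reaches the highest values, 4.70, 6.73 and 5.84, whereas *Stmn1* stays at or below 1.52.

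The libraries differed in their depth at these calls. The enriched clusters of the 9 genes held 76, 16 and 15.5 IP reads at the median (WT, library 1, library 2), as inferred from the deposited values. Those of all genes held 38, 14 and 11. The WT median rests on *Dclk1*, whose 16 calls had a median of 139.5. The WT medians of *Map1a*, *Map4* and *Dcx* were 17, 28 and 51. The smallest call over 1 input read took 16 IP reads in WT, 9 in library 1 and 8 in library 2. At least 16 IP reads stood behind 22 of 22 WT calls in the 9 genes, 35 of 67 calls of library 1 and 19 of 38 of library 2. No WT call can hold fewer than 16, so the 22 of 22 follows from the limits and measures nothing. All 12 brain marker genes checked held clusters in each library, and of 2 liver genes 1 held at most 3. The *Mov10* gene itself held 11, 9 and 9 clusters, with 1 enriched in WT and 0 in either *Mov10* Deletion library. This is no measure of its mRNA or protein.

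Counted by gene, 4 of the 9 held an enriched cluster in WT (*Map1a*, *Map4*, *Dcx* and *Dclk1*), 7 in *Mov10* Deletion library 1 and 5 in library 2. Among protein-coding genes with a cluster the shares were 20.6%, 45.4% and 35.7%; among those with at least 20 clusters they were 41.3%, 75.5% and 63.3%. *Map1b*, *Map2*, *Map4*, *Mapt* and *Dclk1* were called in both *Mov10* Deletion libraries, where 29.6% of protein-coding genes were. Of these, *Map1b*, *Map2* and *Mapt* had no call in WT, a pattern of 13% of protein-coding genes. The 3 genes had their calls at different positions in the *Mov10* Deletion libraries. The 29.6% and 13% are over 12594 genes with a cluster in every library, whatever their number of clusters. All members but *Stmn1* held more than 20 clusters in the *Mov10* Deletion libraries. A background at that number was not computed for these 2 patterns, so they cannot be read as an excess.

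The positions of the calls rarely recurred. The *Mov10* Deletion libraries share 99.824% of their cluster coordinates, so a cluster's place is not an independent measurement in each, whereas its IP over input is. Only 8 clusters were enriched in both, 7 of them in *Dclk1* and 1 in *Map4*. That was 11.9% of the calls of library 1 and 21.1% of those of library 2, beside 13.7% and 22.9% over all clusters. When enriched clusters within 500 nt were joined, the 9 genes held 60 enriched places, of which 53 were called in 1 library, 5 in 2 libraries (3 in *Map4* and 2 in *Dclk1*) and 2 in all 3 libraries. Both of the last were in *Dclk1*.

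*Dclk1* encodes a kinase with doublecortin domains that binds microtubules; its body spans 296766 nt at chr3:55242303-55539068 (mm10, plus strand). Both places called in all 3 libraries lie in its introns in the GENCODE vM39 models, far from the 3′ end. The first, chr3:55280461-55282078, is 1618 nt long and lies at least 256990 nt before the end. The second, chr3:55371757-55373233, is 1477 nt long and lies at least 165835 nt before the end. Together these 3095 nt held 14 of the 16 enriched *Dclk1* clusters in WT, 14 of 32 in *Mov10* Deletion library 1 and 8 of 18 in library 2. The places were found from these calls, so their values describe them and test nothing.

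In the first *Dclk1* place, 10 of 11 clusters were enriched in WT, 6 of 11 in *Mov10* Deletion library 1 and 5 of 11 in library 2, with median log2 of 3.17, 3.10 and 3.0. The highest WT cluster, chr3:55280941-55281125, had a log2 of 4.70 (−log10 p 41.3) from 246 IP and 8 input reads. The *Mov10* Deletion cluster inside it, chr3:55281010-55281113, had 5.14 in library 1 (183 and 9 reads) and 5.66 in library 2 (106 and 5 reads). In library 2 only 1 call of the 9 genes, in *Map1b*, had more IP reads. A neighbour at chr3:55281265-55281405 in WT had 3.76 from 578 IP and 36 input reads, whereas the *Mov10* Deletion cluster there, chr3:55281267-55281440, had 2.95 (372 and 84 reads) and 2.37 (119 and 55 reads), below the limit in both.

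In the second *Dclk1* place, 4 of 4 clusters were enriched in WT, 8 of 9 in *Mov10* Deletion library 1 and 3 of 9 in library 2. WT had a log2 of 4.13 at chr3:55371759-55371869, from 62 IP and 3 input reads. At nearly the same place, chr3:55371757-55371879, the *Mov10* Deletion libraries had 6.73 (61 and 1 reads) and 5.84 (24 and 1 reads), the highest values of the 9 genes in each of them. The difference rests on 1 input read in either library, and its error was not measured. Outside both places, *Dclk1* had 2 of 189 clusters enriched in WT (1.06%), 18 of 362 in library 1 (4.97%) and 10 of 362 in library 2 (2.76%), with median log2 of 0.46, 0.80 and 0.25.

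**Figure D2:**
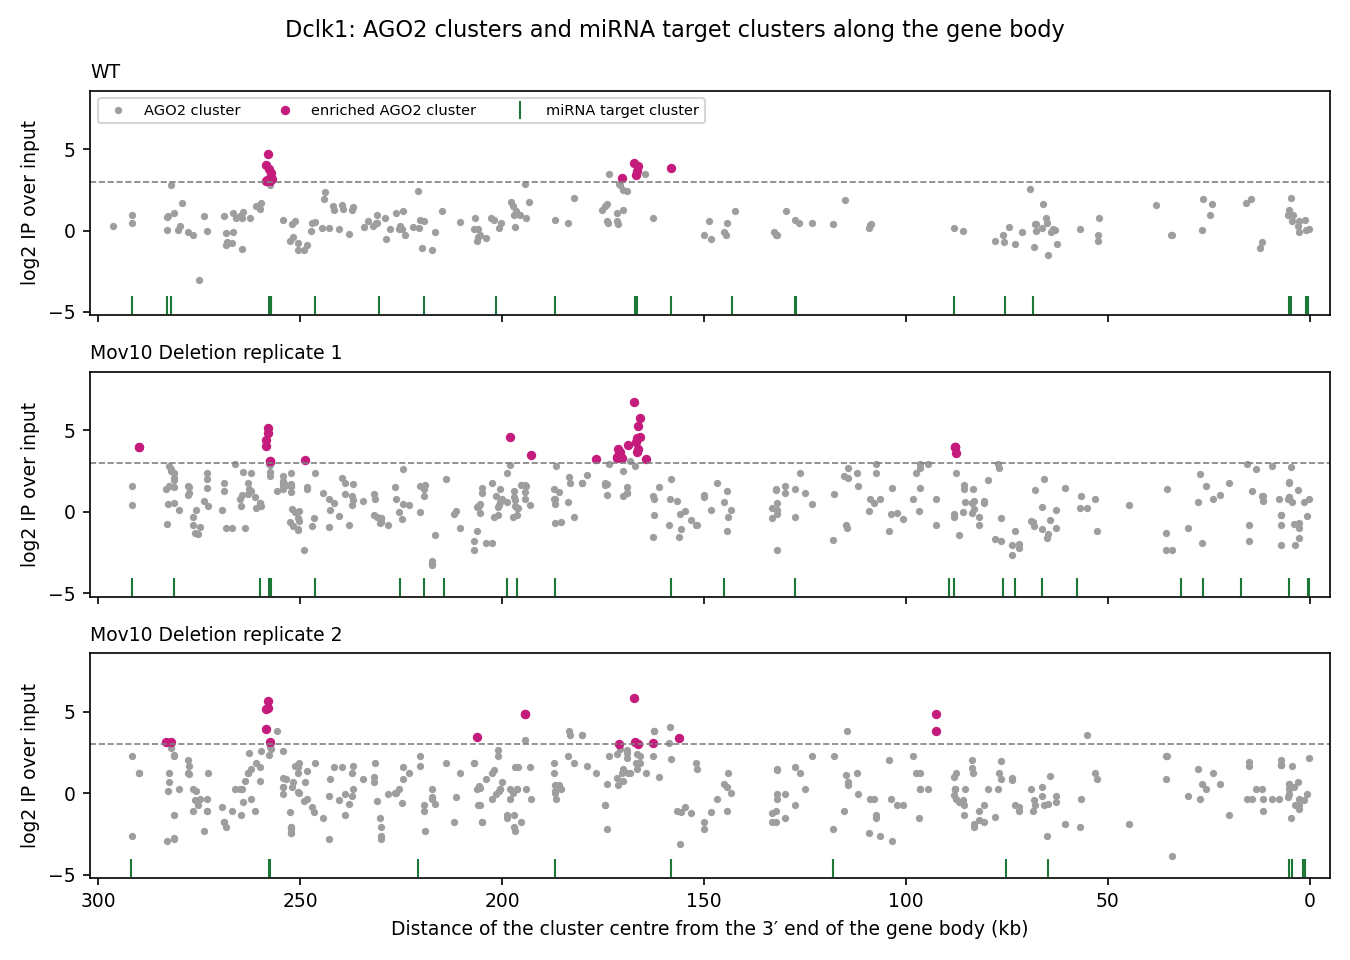
AGO2 clusters of *Dclk1* in each library by distance of their centre from the 3′ end of the gene body in kb (horizontal axis, 3′ end at right) and log2 IP over input (vertical axis); enriched clusters are coloured, ticks are miRNA target clusters, and the dashed line marks a log2 of 3. The 2 intronic places rise above the line in all 3 libraries, with medians over their clusters of 3.41, 3.95 and 2.98.

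miRNAs were assigned to both intronic places of *Dclk1*, mostly in WT. The first held 7 assignments in WT and 2 in each *Mov10* Deletion library, and the second held 3, 0 and 0. miR-466f-3p at chr3:55281271-55281375 was found in each library, with scores of 10.2, 4.22 and 4.54. The score is deposited with each assignment, starts at 3, and is not described in the sources used here, so it is read as an order within a library. let-7c-5p and let-7b-5p were each assigned there in WT and in 1 *Mov10* Deletion library. In both places, the target clusters of let-7b-5p, let-7c-5p and miR-9-5p held no match to their own seeds, at either length searched.

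The mature *Dclk1* mRNA had recurring assignments on clusters with lower IP over input. In the CDS, miR-124-3p was assigned at chr3:55380771-55380818 with scores of 12.8, 7.92 and 6.0. The AGO2 cluster there was enriched in WT, at a log2 of 3.84 from 17 IP reads over 1, and stood at 2.05 and 2.10 in the *Mov10* Deletion libraries. In the 3’UTR, miR-16-5p was assigned at chr3:55533913-55534021 with scores of 19.3, 12.98 and 6.56, over a match to the miR-15/16 seed. miR-15a-5p was listed for the same cluster in WT (6.57) and *Mov10* Deletion library 1 (13.9). No AGO2 cluster at this 3’UTR site was enriched: the log2 values were 1.27, 1.85 and 0.58.

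*Dclk2*, which encodes a close relative of DCLK1, had the widest gap in enriched clusters between the *Mov10* Deletion libraries. Its body is at chr3:86786150-86920952 (mm10, minus strand), with 84, 186 and 186 clusters. None was enriched in WT, 17 were in *Mov10* Deletion library 1 and 0 in library 2. Of the 17, 14 lay in introns, 2 in the 3’UTR and 1 in the CDS. Their median log2 was 3.5 in library 1 and 0.25 in library 2, where they ranged from −0.75 to 1.99. They were chosen by their value in library 1, so a lower value in library 2 is built in; all clusters called in library 1 had a median of 1.25 there. The highest, at chr3:86808311-86808375 and chr3:86853397-86853409, had 4.5 from 13 IP reads over 1. miR-9-5p was assigned to 1 *Dclk2* intron site in all 3 libraries (chr3:86826447-86826541), with scores of 13.8, 9.93 and 4.97.

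*Dcx*, the X-linked gene whose loss disturbs cortical neuron migration in people, had 38, 50 and 50 clusters at chrX:143855842-143933396 (mm10, minus strand). One was enriched, in WT: chrX:143930999-143931044 in the CDS had a log2 of 3.43 from 51 IP and 4 input reads. The overlapping *Mov10* Deletion cluster, chrX:143930964-143931053, had 2.91 (52 and 12 reads) and 1.84 (21 and 14 reads). In the 3’UTR, miR-135a-5p was found in all 3 libraries at chrX:143860539-143860627 (13.4, 12.9 and 9.74), and miR-466i-5p at chrX:143861859-143861935 in WT (17.0) and library 1 (10.7).

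*Map1b* showed the most miRNA assignments and almost no enriched cluster. MAP1B is a large protein of growing axons, and its gene is at chr13:99421464-99516602 (mm10, minus strand). It held 46 of the 166 assignments to the 9 genes in WT, 58 of 178 in *Mov10* Deletion library 1 and 42 of 111 in library 2. By number of assignments it ranked 11th, 18th and 7th among 13115, 13849 and 13849 protein-coding genes with an AGO2 cluster. Counts per gene are not corrected for its length or its mRNA level, and the latter was not measured here. Per kb of gene body *Map1b* held 0.252, 0.336 and 0.284 target clusters. The median log2 over its 42, 80 and 80 AGO2 clusters was 0.08, 0.25 and 0.14, which places it at percentile 10.8, 5.21 and 4.72 of the same genes. A large share of its clusters passed the p limit alone, 10 of 42 (23.8%), 19 of 80 (23.8%) and 14 of 80 (17.5%), where 4.06%, 7.77% and 4.32% of all clusters did. The median log2 of those clusters was 1.24, 1.61 and 1.33, so they were deeply read and modestly above input.

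**Figure D3:**
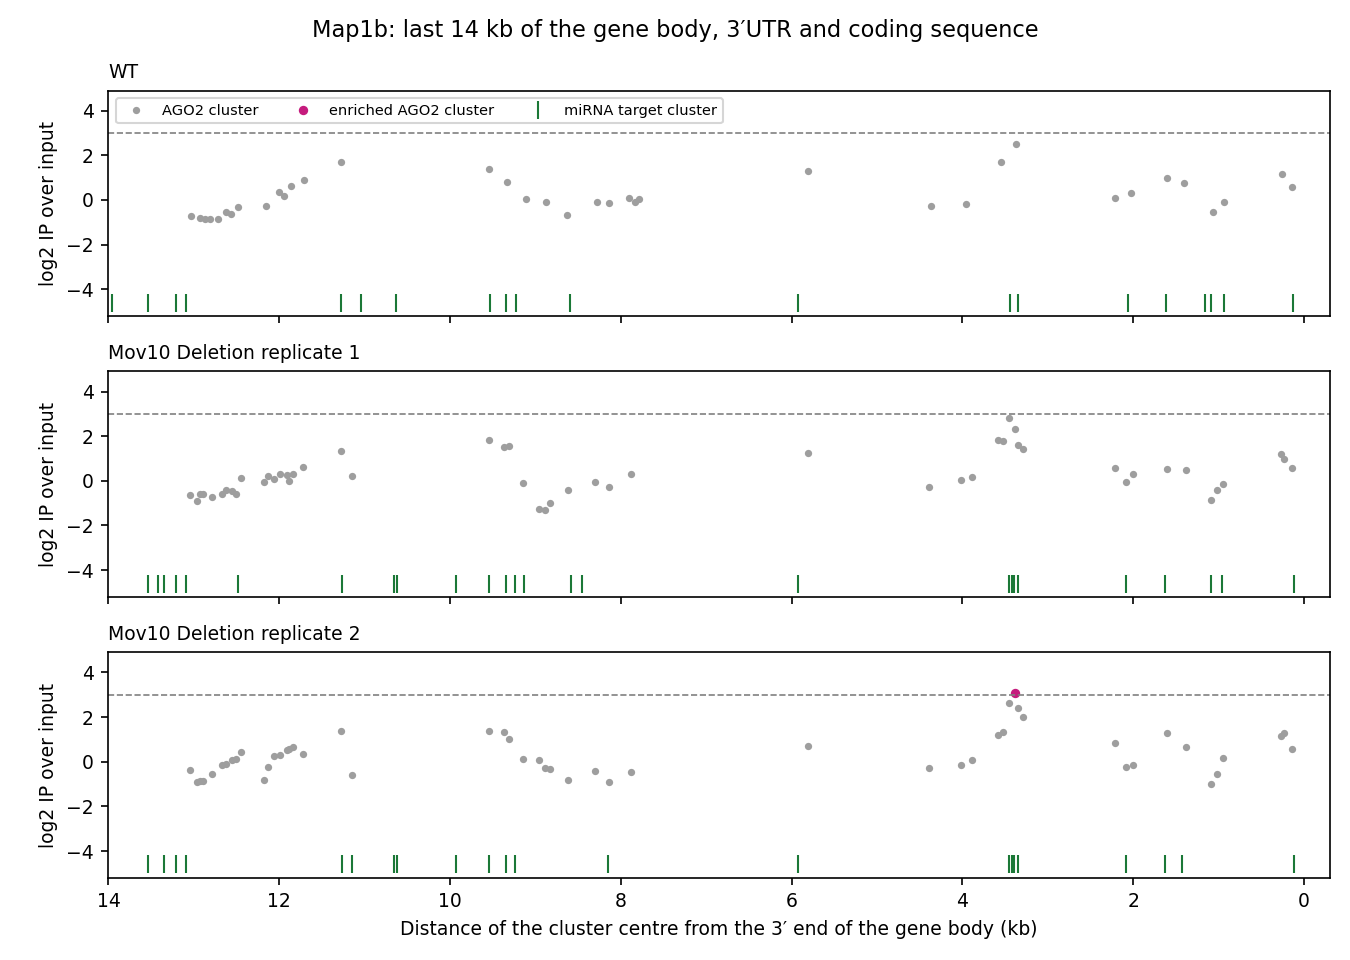
AGO2 clusters in the 3’UTR and coding end of *Map1b* in each library by distance of their centre from the 3′ end of the gene body in kb (horizontal axis, 3′ end at right) and log2 IP over input (vertical axis), with enriched clusters coloured, ticks for miRNA target clusters and a dashed line at a log2 of 3. Target clusters crowd into the 3’UTR and the large coding exon, and the clusters beneath them peak at 2.50 in WT.

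The strongest *Map1b* site lay in its 3’UTR. WT had a log2 of 2.50 at chr13:99424721-99424955 (−log10 p 68.3) from 622 IP and 93 input reads, the highest value of the gene in that library. In the *Mov10* Deletion libraries the stretch was split: chr13:99424821-99424880 had 2.34 (308 and 106 reads) and 3.09 (182 and 51 reads), and chr13:99424881-99424950 had 2.83 (307 and 75 reads) and 2.61 (136 and 53 reads). The value of 3.09 was the only exonic *Map1b* cluster called enriched in any library, and all 5 values lie between 2.34 and 3.09. The other call, an intronic cluster at chr13:99479496-99479510, had 3.46 from 19 IP and 3 input reads in library 1 and 1.25 in library 2.

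miR-9-5p gave this *Map1b* 3’UTR site its highest score in every library: 123, 62.5 and 24.6 at chr13:99424757-99424945. miR-124-3p had 59.8, 32.9 and 5.68 on the same stretch, miR-181a-5p 6.98, 3.65 and 5.0, and miR-26a-5p 26.6 and 5.68 in WT and library 1. The 7-base miR-9-5p match lies whole in the WT target cluster, chr13:99424874-99424931. In the *Mov10* Deletion libraries, which divide the stretch into adjoining clusters, it crosses the border between 2 of them. The 123 in WT is the top score of the 9 genes in that library.

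The coding sequence of *Map1b* held still more of the recurring assignments, 22 in the CDS against 12 in the 3’UTR and 0 in introns. miR-9-5p and miR-125b-5p met at chr13:99432688-99432776, miR-9-5p with scores of 36.9, 40.8 and 25.5 and miR-125b-5p with 31.6, 27.5 and 8.19. The log2 IP over input there was 1.71 (93 and 24 reads), 1.35 (107 and 73 reads) and 1.39 (45 and 41 reads). let-7c-5p was assigned at chr13:99430767-99430860 with 10.5, 10.4 and 9.0, over a full seed match that 5 members of the let-7 family were listed for in at least 2 libraries. miR-27b-3p in the 3’UTR (chr13:99423479-99423585) had 27.1, 13.8 and 7.62. miR-124-3p at chr13:99427345-99427444 in the CDS had 7.97, 29.7 and 7.80.

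*Map2* and *Mapt*, which encode the main dendritic and axonal members, had enriched clusters only in the *Mov10* Deletion libraries, on few reads. *Map2* (chr1:66175202-66442583, mm10, plus strand) had 0 of 136 clusters enriched in WT, 3 of 241 in library 1 and 8 of 241 in library 2, and all 11 were intronic. The highest, 4.26 in library 1 at chr1:66241752-66241792, rested on 11 IP reads over 1 and had 0.25 in library 2. In library 2, 3 clusters tied for the highest value, 3.84 from 12 IP reads over 2, among them chr1:66348845-66348910. At the same time *Map2* ranked 20th, 47th and 22nd by assignments, with 35, 35 and 21.

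Of the recurring *Map2* assignments, 7 were in the CDS, 4 in the 3’UTR and 7 in introns. Those found in all 3 libraries were in the CDS (5) and 3’UTR (4), with 0 in introns. miR-9-5p at chr1:66380637-66380766 in the CDS had scores of 51.4, 52.2 and 20.1 over a full seed match, the highest of the gene in each library. In WT the AGO2 cluster there had a log2 of 1.33 from 161 IP and 54 input reads. miR-124-3p was assigned to the CDS at chr1:66412496-66412600 (33.2, 19.9 and 14.7) and chr1:66414045-66414109 (32.6, 24.8 and 9.17). The first of these had AGO2 log2 values of −0.07, 0.69 and 0.11, all within 1 of the input level on the log2 scale. The second had 0.67 in WT, 1.77 in library 1 and 1.93 in library 2. In the 3’UTR, miR-26a-5p at chr1:66439787-66439899 had scores of 45.9, 24.0 and 10.9, on clusters with log2 of 1.25, 1.71 and 1.62, and miR-153-3p at chr1:66441126-66441258 had 8.73, 14.8 and 3.0.

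*Mapt* (chr11:104229409-104332090, mm10, plus strand) had 0 of 86 clusters enriched in WT, 7 of 132 in library 1 and 6 of 132 in library 2, with 0 in common. Library 1 peaked at 4.89 in an intron (chr11:104257862-104257884, 17 IP reads over 1). The 6 calls of library 2 had a median log2 of −0.99 in library 1, where all clusters called in library 2 had 0.80. One of them lay in the 3’UTR, chr11:104329530-104329568, with 4.13 from 22 IP and 3 input reads, and had 2.84 in library 1 (33 and 8 reads). miR-124-3p was assigned there in WT (11.3) and library 1 (16.2). All 3 libraries had assignments in the CDS at chr11:104327968-104328141. miR-124-3p had scores of 29.8, 47.9 and 27.3 there, and miR-9-5p 27.4, 22.6 and 19.7 at chr11:104327968-104328043. miR-125b-5p had 19.8, 3.93 and 11.8 on that shorter stretch.

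*Map4*, the form found in many cell types, had exonic calls in all 3 libraries, with only 1 in *Mov10* Deletion library 1. Its gene is at chr9:109929841-110083954 (mm10, plus strand), and 4 of 66, 3 of 91 and 5 of 91 clusters were enriched. In the CDS, WT had 4.08 (20 IP reads over 1) at chr9:110034710-110034767 and 3.93 (36 over 2) in the next cluster. The *Mov10* Deletion cluster across both, chr9:110034711-110034965, had 2.41 (52 and 17 reads) and 3.18 (38 and 10 reads). miR-9-5p was assigned there in WT (11.2) and library 2 (3.82), over a full seed match. A short CDS cluster, chr9:110072612-110072663, was enriched in both *Mov10* Deletion libraries (3.97 and 4.25, from 9 and 8 IP reads over 1); the WT cluster inside it, chr9:110072627-110072634, had 1.56.

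The 3’UTR of *Map4* was called in WT at chr9:110082671-110082778 (3.34, from 24 IP and 2 input reads) and in library 2 some bases upstream. A further WT call there, chr9:110083035-110083167, had 3.17 from 32 IP and 3 input reads; the overlapping *Mov10* Deletion cluster, chr9:110082943-110083078, had 2.84 in library 1 and 1.1 in library 2. Library 2 had 3 adjoining calls of 3.67, 3.67 and 3.42 within chr9:110082383-110082636, where library 1 had 0.48, 1.28 and 2.38. Where WT had 3.34, the *Mov10* Deletion cluster, chr9:110082664-110082760, was at 1.38 in library 1 and 1.99 in library 2, below WT in both.

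*Map1a*, the relative of *Map1b* in mature neurons, held 13, 33 and 33 clusters at chr2:121289590-121310832 (mm10, plus strand), of which 1, 4 and 0 were enriched. The WT call, chr2:121302636-121302732 in the CDS, had 3.84 from 17 IP reads over 1, and no *Mov10* Deletion cluster overlapped it. Library 1 peaked at 4.38 in an intron (12 reads over 1). miR-124-3p was assigned to the *Map1a* CDS at chr2:121299801-121299889 in all 3 libraries, with scores of 4.57, 6.60 and 3.75. *Stmn1*, which encodes the tubulin-sequestering protein stathmin and is the shortest of the genes (chr4:134468320-134473843, mm10, plus strand), had 5, 8 and 8 clusters and 0 enriched. Its highest values, all in the 3’UTR, were 1.25 (79 and 28 reads), 1.52 (56 and 34 reads) and 1.51 (25 and 21 reads). It had 2 assignments in WT and 0 in either *Mov10* Deletion library.

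By class of annotation, the enriched clusters of these genes and their miRNA targets fell in different places. Introns held 15 of 22 enriched clusters in WT (68.2%), 60 of 67 in library 1 (89.6%) and 30 of 38 in library 2 (78.9%). Introns also held 69.3%, 74.4% and 74.4% of all their clusters. Target clusters lay in the CDS in 39 of 115 cases (33.9%), 49 of 131 (37.4%) and 41 of 90 (45.6%), and in the 3’UTR in 29, 32 and 21. Per kb of each class over the 9 genes, the CDS held 0.945, 1.19 and 0.994 target clusters, the 3’UTR 0.476, 0.526 and 0.345, and introns 0.0448, 0.0487 and 0.0273. The order CDS, 3’UTR, intron was the same in each library. The 3’UTR length takes in all coding transcripts, also those that end inside the gene. In *Dclk1* it is 15698 nt, where the longest last-exon 3’UTR has 5445 nt. This lowers the 3’UTR density, and the same densities over all genes were not computed. AGO2 clusters had that order as well, with 2.62 per kb of CDS, 1.49 per kb of 3’UTR and 0.455 per kb of intron in WT.

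Measured from the annotated end, few of the enriched clusters lay in the terminal 3’UTR region, whose length is the longest last-exon 3’UTR of a coding transcript counted back from the mm10 gene end. The share was 2 of 22 (9.09%), 3 of 67 (4.48%) and 5 of 38 (13.2%), against 39.9%, 22.6% and 22.6% of the enriched clusters of all genes with such a region. Over the 3 libraries it was 10 of 127 (7.87%, exact 95% interval 3.84 to 14). Without *Dclk1* it was 10 of 61 (16.4%, 8.15 to 28.1). That interval holds the 22.6% of the *Mov10* Deletion libraries but not the 39.9% of WT. Pooling counts a cluster again in each library that calls it, so both pooled intervals are too narrow. By library, the values without *Dclk1* were 2 of 6 (33.3%) in WT, 3 of 35 (8.57%) in library 1 and 5 of 20 (25%) in library 2, so the low pooled share rests in large part on *Dclk1*. Of all clusters in the 9 genes, 11.7%, 9.89% and 9.89% lay there.

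Targets and enriched clusters seldom coincided. An AGO2 cluster overlapped 65.2%, 64.9% and 65.6% of the target clusters of the 9 genes, beside 68.8%, 50.2% and 53.6% of all target clusters. An enriched one overlapped 9 of 115 (7.83%), 4 of 131 (3.05%) and 7 of 90 (7.78%), beside 15.04%, 11.7% and 11.98% over all genes. *Dclk1* accounted for 7 of the 9 in WT, and *Map1b* for 4 of the 7 in library 2. Those 4 are adjoining pieces of 1 3’UTR stretch over 1 enriched cluster.

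**Figure D4:**
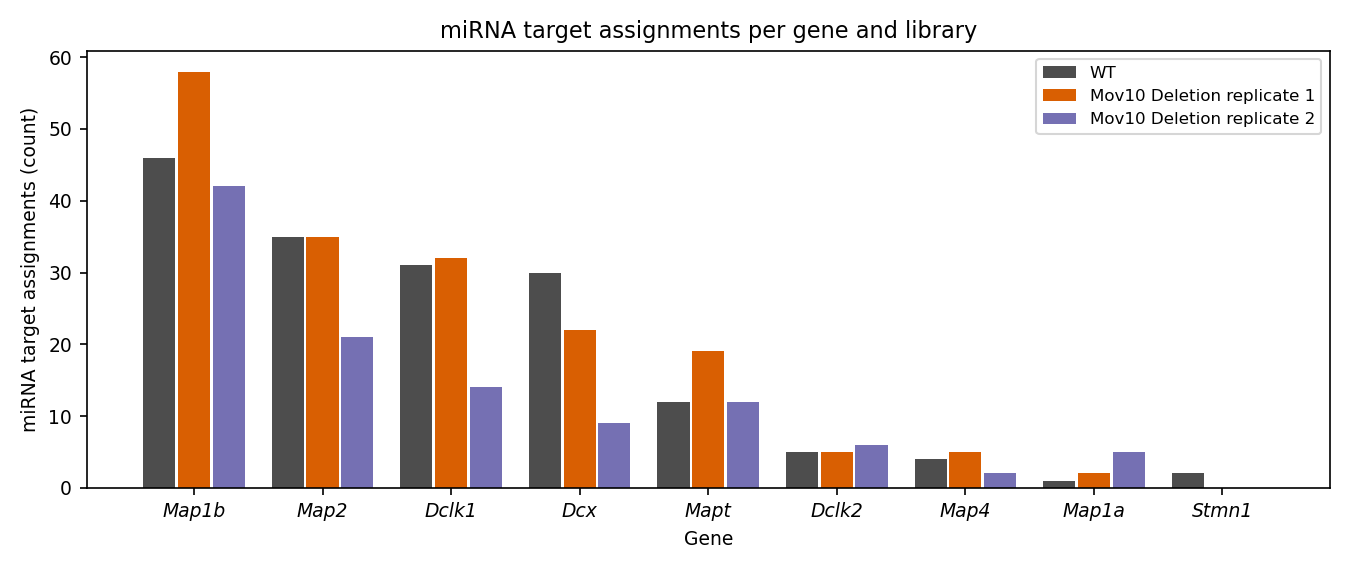
Bars give the number of miRNA target assignments (vertical axis) in each gene (horizontal axis) for the WT library and *Mov10* Deletion libraries 1 and 2. *Map1b* has the most in every library (46, 58 and 42), followed by *Map2* (35, 35 and 21), whereas *Stmn1* has 2 in WT and none in the others.

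Many assignments to these genes were found again in another library. All 9 genes had a target cluster in WT and 8 in each *Mov10* Deletion library, where 46.5%, 52.5% and 37.1% of protein-coding genes with an AGO2 cluster did. That background is not matched for the number of clusters per gene, so these counts cannot be read as an excess. Of 166 WT assignments, 74 (44.6%) had the same miRNA on an overlapping cluster in library 1 and 55 (33.1%) in library 2, beside 34.4% and 19.4% over all genes. From library 2, 60 of 111 (54.1%) were found in WT and 54 (48.6%) in library 1, beside 31.7% and 28.1%. The part of mRNA level in this was not tested. In all, 88 assignments with 27 miRNAs recurred in at least 2 libraries, 42 in the CDS, 29 in the 3’UTR and 17 in introns. *Map1b* held 34 of them, *Map2* 18, *Dcx* 15, *Dclk1* 10 and *Mapt* 6.

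Of the assignments, 40 were in all 3 libraries, 24 of them in the CDS. Their median score was 14.2 in WT, 12.2 in library 1 and 6.66 in library 2. WT had the highest score in 30 of the 40 and library 2 the lowest in 30. Library 2 also had the fewest assignments over all genes, 13468 against 22074 in WT and 30526 in library 1, and its scores over all genes had a median of 4.0, as in library 1, against 4.65 in WT. Whether scores scale with the number of chimeric reads is not described, so the difference between genotypes in these scores cannot be told apart from depth.

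miR-124-3p and miR-9-5p, both abundant in neurons, led the assignments. miR-124-3p made up 56 of 166 (33.7%), 56 of 178 (31.5%) and 30 of 111 (27.0%), beside 42.2%, 34.8% and 36.8% of all assignments. miR-9-5p made up 30 (18.1%, exact 95% interval 12.5 to 24.8), 28 (15.7%, 10.7 to 21.9) and 24 (21.6%, 14.4 to 30.4), beside 9.12%, 6.69% and 6.86%. The whole-library share of miR-9-5p lay below the interval in each library. Assignments within a gene can share a stretch, as the adjoining *Map1b* clusters do, so the intervals are too narrow. miR-9-5p reached 7, 7 and 8 of the genes, with 7, 12 and 9 assignments in *Map1b*, 6, 5 and 5 in *Map2*, 8, 3 and 2 in *Dclk1* and 4, 5 and 3 in *Dcx*. Of its assignments 13, 12 and 13 were in the CDS and 7, 9 and 7 in the 3’UTR.

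**Figure D5:**
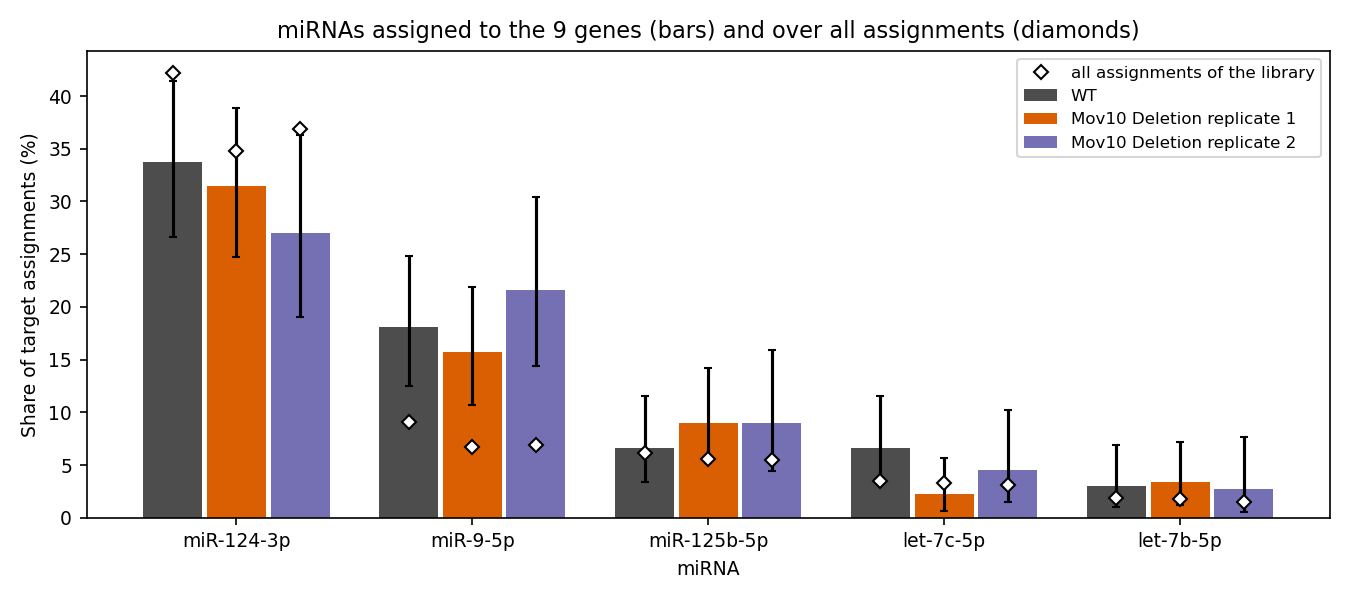
Bars give the percent of the 9 genes' target assignments (vertical axis) made to each of the most frequent miRNAs (horizontal axis) in each library, with exact 95% intervals; diamonds give the percent over all assignments of the library. The miR-9-5p bars (18.1, 15.7 and 21.6) stand above their diamonds, and the miR-124-3p bars below theirs.

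miR-125b-5p followed with 11, 16 and 10 assignments, mostly in the CDS (9, 9 and 7). let-7c-5p had 11, 4 and 5, and let-7b-5p 5, 6 and 3. Where a sequence was at hand, the target cluster held the 7-base match to its own miRNA in 41 of 99 cases in WT (41.4%), 31 of 111 in library 1 (27.9%) and 25 of 78 in library 2 (32.1%). A 6-base match alone was present in another 28, 30 and 18. Adjoining clusters of 1 stretch count here as separate cases. At the *Map1b* 3’UTR site, the miR-9-5p match lies whole in a WT cluster but crosses a border between *Mov10* Deletion clusters. These shares, and those of miR-9-5p alone, therefore cannot be compared between WT and the *Mov10* Deletion libraries. For miR-9-5p, ACCAAAG on the transcript strand, the only strand searched, was in 7 of 30, 4 of 28 and 6 of 24 of its own clusters, and in 0 of 85, 3 of 103 and 0 of 66 target clusters of the 9 genes assigned to other miRNAs. CTACCTC, the let-7 match, was in 5 of 11, 2 of 4 and 2 of 5 let-7c-5p clusters and in 1 of 5, 0 of 6 and 1 of 3 let-7b-5p clusters. It was in 0 of 101, 1 of 118 and 0 of 79 of the others.

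Where WT and *Mov10* Deletion clusters overlapped reciprocally by at least 50%, their values could be set side by side. The 9 genes had 216 such clusters, with median log2 of 0.43 in WT, 0.54 in library 1 and 0.25 in library 2. The median difference, *Mov10* Deletion mean minus WT, was −0.15 (quartiles −0.63 to 0.23), beside −0.14 over 64808 matched clusters of all genes. It was −0.0040 with library 1 alone and −0.13 with library 2 alone. The *Mov10* Deletion libraries differed from each other by a median of 0.61. Clusters at least 1 higher than WT in both numbered 9 (4.17%, background 5.35%), and those at least 1 lower numbered 8 (3.70%, background 7.01%).

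*Dclk1* held 6 of the 9 higher clusters and 2 of the 8 lower ones, among 67 matched. Among the higher were chr3:55280608-55280684 in the first intronic place (WT 3.02, then 4.02 and 5.16) and chr3:55371759-55371869 in the second (4.13, then 6.73 and 5.84). Among the lower was the CDS cluster under miR-124-3p (3.84, then 2.05 and 2.10). *Map2* had 2 higher and 1 lower of 45, *Dclk2* 1 and 2 of 20, *Map4* 0 and 2 of 9 and *Mapt* 0 and 1 of 26. *Map1b* and *Dcx* had 0 in either direction among 23 and 18, and the median difference of *Map1b* was −0.04.

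Further genes of the pathway were counted from lists by name. Of 25 other microtubule-binding proteins, 10 held an enriched cluster in WT, 18 in library 1 and 10 in library 2 (40.0%, 72.0% and 40.0%, beside 20.6%, 45.4% and 35.7% of protein-coding genes with a cluster and 41.3%, 75.5% and 63.3% of those with at least 20). Of the 25, 9 held one in both *Mov10* Deletion libraries, beside 29.6% of protein-coding genes with a cluster in every library. *Mtus2* (3, 7 and 9 enriched clusters) and *Mtus1* (3, 8 and 6), which encode microtubule-associated scaffold proteins, held the most by the sum over the 3 libraries (19 and 17, with 16 in *Map6*); in library 1 alone *Map6*, a microtubule stabiliser, held the most (0, 14 and 2). Of 11 kinases or kinase activators that act on the members' proteins, 5, 11 and 10 held one, and 10 did in both *Mov10* Deletion libraries. The same backgrounds apply, 41.3%, 75.5% and 63.3% at 20 or more clusters. For both *Mov10* Deletion libraries together it is 29.6%, which is not matched for the number of clusters per gene. *Mapk10*, a Jun kinase of neurons, held 13, 15 and 10, and *Mark2*, which phosphorylates microtubule-associated proteins, 2, 8 and 5. The lists held 57, 81 and 45 and 62, 54 and 26 target assignments. By percent of clusters enriched in each of the 3 libraries (7.84, 8.38 and 4.71 in *Dclk1*), the genes nearest to *Dclk1* among 3773 were *Atp2b2*, *Pcdhga1* and *Tbc1d30*, at distances of 0.80, 0.96 and 0.97 percentage points.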

How the data were processed

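AGO2 was immunoprecipitated from UV-crosslinked whole brain, and IP and size-matched input libraries were sequenced by chimeric eCLIP. Per the study's methods and the submitters' processing notes, the authors handled molecular identifiers with UMI-tools 1.1.1, trimmed adapters with cutadapt 3.2, mapped reads to mm10 with STAR 2.7.7a, and called clusters with CLIPper; Bowtie 1.2.3 is also named. For each cluster the authors deposited a −log10 p (0 to a cap) and a log2 IP over input. The authors also deposited target clusters with a miRNA name and a score of at least 3. Whether clusters of the *Mov10* Deletion libraries were called together is not given in the sources used here. Total read numbers were not used here, so depth is known only through reads inferred at clusters.

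Clusters were joined to mm10 RefSeq gene bodies by strand, which 90.58% of genes carried. Short genes inside *Map2*, *Map4*, *Dclk1* and *Dclk2* on the same strand (*Gm24729*, *Gm25411*, *Gm4734*, *Gm25132* and *Gm46810*) held 0 enriched clusters of the members. Exon classes and sequences came from GRCm39 (GENCODE vM39), linked to mm10 through 153 RefSeq promoter sequences of 300 nt near or in the members, each found once in GRCm39, at 1 distance per member; classes followed the order CDS, 3’UTR, 5’UTR, non-coding exon, intron. IP and input reads were inferred as the whole numbers that give both deposited values (tolerance 0.001 on −log10 p, up to 400 input reads), and the search was tested on simulated clusters. Clusters with −log10 p of 0 give no such numbers.

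Enrichment was called at log2 and −log10 p of at least 3 each. Shares carry exact Clopper-Pearson 95% intervals. All members were named; clusters were named for the highest enriched value or target score per member and library, or for an assignment that recurred in at least 2 libraries, and values of overlapping clusters were set beside them; the further *Map4*, *Mapt* and *Map1b* clusters were chosen after their values were seen. The members and lists were chosen with earlier results of these data known. The sequence at 1 further site and the assignments over it are not reported here. Alternatives varied the limits, overlap, width, terminal region and score, and left out each *Mov10* Deletion library. Python 3.11.15, pandas 2.3.3, NumPy 2.4.6, SciPy 1.17.1 and matplotlib 3.10.9 were used.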

Additional observations from a re-analysis of the deposited data

How the results depend on the processing

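Of 59 alternatives, 33 left a value within its tolerance and 26 moved it. At a minimum log2 of 2 the enriched clusters numbered 46 in WT, 129 in *Mov10* Deletion library 1 and 68 in library 2; at 4 they numbered 4, 25 and 10. At a −log10 p of at least 5, libraries 1 and 2 had 34 and 22. Genes called in both *Mov10* Deletion libraries went from 5 to 3 at the stricter p (*Map1b*, *Mapt*, *Dclk1*), 8 at log2 of 2 and 3 at log2 of 4 (*Map4*, *Mapt*, *Dclk1*). They numbered 5 to 7 with either library alone. Genes called in WT went from 4 to 8 at log2 of 2 and 2 at log2 of 4. The terminal share of 7.87% became 2.56% at log2 of 4 and 2.36% for the last 1000 nt. At a score of at least 5, assignments fell to 86, 92 and 54. These changes follow from stricter or looser limits. The median difference of −0.15 became −0.25 at a reciprocal overlap of 0.8, and ranged from −0.13 to −0.0040 with 1 *Mov10* Deletion library left out; the cause was not tested. Subtracting each library's median gave −0.58, a shift of 0.43 that every matched cluster of all genes shares by construction. Chosen after seeing the data, a minimum of 16 inferred IP reads left 35 and 19 enriched clusters in libraries 1 and 2 and 3 genes in both (*Map1b*, *Mapt*, *Dclk1*); requiring the same cluster in both left 2 genes; and leaving out *Dclk1* gave a terminal share of 16.4%.

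No paired analysis was possible because the labels pair no WT library with a *Mov10* Deletion library. With 1 WT library no genotype difference has a replicate check. Many *Mov10* Deletion calls rest on 1 or 2 input reads.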
